A study of Mus musculus with 39 samples.

Results

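In mouse muscle stem cells fixed in the animal before isolation, 8 genes of chemokine, cytokine and prostaglandin signalling were 6.82-fold to 71.7-fold lower than in cells isolated unfixed. Cxcl1, a neutrophil-attracting chemokine, stood at 13.6, 21.4, 10.9 and 13.9 RPKM in the 4 libraries of fixed cells, against 948, 1193 and 1098 RPKM in the 3 libraries of unfixed cells. RPKM divides the reads of a gene by the length of its model and by the size of the library. It is a relative measure, and comparisons between libraries depend on how that size is set. The 8 genes were Cxcl1, Ccl2, Ccl7, Il6, Lif, Csf1, Tnfaip6 and Ptgs2, taken by their symbol from both deposited tables and chosen with earlier results of these data known. They are 8 of 16979 genes in the table of labelling and transcription inhibition and 8 of 13938 in the table of fixation.

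Chemokines are small secreted proteins that draw white blood cells along a gradient. CXCL1 acts on neutrophils through the receptor CXCR2, and CCL2 and CCL7 act on monocytes through CCR2. IL-6 and LIF signal through receptors that share the subunit gp130, which is the product of Il6st. CSF1 keeps macrophages alive through CSF1R. Tnfaip6 codes for TSG-6, a secreted protein that binds hyaluronan and is induced by inflammatory cytokines. Ptgs2 codes for COX-2, the inducible enzyme that makes the common precursor of the prostaglandins. Many of these genes are switched on within hours by the transcription factor families NF-kB and AP-1, and many of their mRNAs are short-lived because proteins bind AU-rich stretches in the 3′ UTR. Muscle stem cells, or satellite cells, rest beside the fibres of skeletal muscle, and taking them out requires hours of enzymatic and mechanical dissociation.

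The study set 10 groups of mouse libraries side by side, 39 libraries in all. Fixed stem cells (Fix, n = 4) came from mice perfused with 1% paraformaldehyde and then sorted, and unfixed stem cells (Fix_Control, n = 3) were sorted without fixation. In the second experiment, each group had 4 libraries. Cells were isolated with the RNA polymerase II inhibitor α-amanitin (MuSC_aAM) or with its solvent DMSO (MuSC_ctrlAM). The mice of the labelling experiment were Pax7CreER/+: UPRTHA/+, in which a Cre that is active under the satellite cell gene Pax7 turns on UPRT, with which a cell can build 4-thiouracil (4tU) into its new RNA. Such mice received 4tU 6 h before harvest (TU_6h in vivo), every 12 h for 1 d (TU_1d) or every 12 h for 4 d (TU_4d), and labelled RNA was pulled down from the RNA of the whole hindlimb muscle. For the isolation label (TU_sort ex vivo), 4tU was present while the cells were taken out, which lasted about 6 h, and labelled RNA was pulled down from the purified cells. Total RNA of purified cells (Input_MuSC) and total RNA of hindlimb muscle (Input_muscle) were read without a pull-down. The genotype, sex and age of the animals behind the inhibitor and fixation libraries were not given in the sources used here, and neither was whether replicates were separate animals. The p-values therefore measure only the spread between these libraries, which may be technical.

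The genes lie on 5 mouse chromosomes, and Ccl2 and Ccl7 are neighbours. On mm10, Ccl2 (ENSMUSG00000035385) spans chr11:82035571-82037453 and Ccl7 (ENSMUSG00000035373) chr11:82045712-82047525, both on the plus strand, with 2 and 3 exon blocks in the files. Lif (ENSMUSG00000034394) lies on the same chromosome at chr11:4257557-4272514, plus strand, with 5 blocks. Cxcl1 (ENSMUSG00000029380) at chr5:90891241-90893115 and Il6 (ENSMUSG00000025746) at chr5:30013161-30019968 share another chromosome, both on the plus strand, with 4 and 5 blocks. Csf1 (ENSMUSG00000014599) is the only one on the minus strand, at chr3:107741048-107760469, with 12 blocks. Tnfaip6 (ENSMUSG00000053475) is at chr2:52038009-52056686 with 6 blocks, and Ptgs2 (ENSMUSG00000032487) at chr1:150100124-150108010 with 10 blocks, both on the plus strand. The gene models used for the RPKM run from 801 bases for Ccl7 to 5262 bases for Csf1.

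The 250 bases before the start of 4 of the genes are shown because they hold letters that match the NF-kB and AP-1 recognition sequences. RefSeq on GRCm38.p6 had an entry for 6 of the 8 genes. Capitals mark κB matches (GGG, any 2 bases, then TTTCC) or AP-1 matches (TGANTCA), each searched on both strands, and no match of one overlapped a match of the other. The stretches are chr5:90890995-90891244 (plus strand) for Cxcl1, chr5:30012864-30013113 (plus) for Il6, chr3:107760470-107760719 (minus) for Csf1 and chr2:52037863-52038112 (plus) for Tnfaip6.
Cxcl1: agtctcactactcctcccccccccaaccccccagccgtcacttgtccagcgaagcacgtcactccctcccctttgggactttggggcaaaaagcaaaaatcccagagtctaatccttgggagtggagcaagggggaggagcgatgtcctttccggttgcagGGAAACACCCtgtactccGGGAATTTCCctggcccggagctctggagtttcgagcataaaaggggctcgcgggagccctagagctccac
Il6: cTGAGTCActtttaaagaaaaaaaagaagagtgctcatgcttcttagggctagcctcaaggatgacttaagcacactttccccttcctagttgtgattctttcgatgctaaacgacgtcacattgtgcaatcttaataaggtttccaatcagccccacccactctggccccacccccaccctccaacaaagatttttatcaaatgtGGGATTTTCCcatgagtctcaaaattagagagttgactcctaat
Csf1: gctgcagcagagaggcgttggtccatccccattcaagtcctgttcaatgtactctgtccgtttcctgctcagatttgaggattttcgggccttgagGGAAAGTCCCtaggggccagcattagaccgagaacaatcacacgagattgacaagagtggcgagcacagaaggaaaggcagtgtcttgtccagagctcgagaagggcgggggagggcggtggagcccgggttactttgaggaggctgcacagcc
Tnfaip6: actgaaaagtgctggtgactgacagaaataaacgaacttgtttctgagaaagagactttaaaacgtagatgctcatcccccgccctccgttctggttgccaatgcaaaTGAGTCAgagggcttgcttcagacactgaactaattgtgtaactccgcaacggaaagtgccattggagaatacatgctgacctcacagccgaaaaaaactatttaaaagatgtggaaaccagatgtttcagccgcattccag
Counting the base before the start as −1, Cxcl1 held κB matches at −89 to −80 and −71 to −62, Il6 at −44 to −35 and Csf1 at −154 to −145. In windows of 300 bases, from 250 before to 50 after the start, 535 of 32851 promoters (1.63%) held such a match. AP-1 matches stood at −249 to −243 in Il6, at −142 to −136 in Tnfaip6 and at −228 to −222 in Lif, and 2565 promoters (7.81%) held one. The Ptgs2 window held neither string of letters. A match here is a description of the letters and not a bound site.

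The 3′ UTRs of the genes held the pentamer ATTTA, the core of AU-rich elements, 1 to 14 times. In the principal transcripts of GENCODE vM21, Ptgs2 had 14, Cxcl1 and Lif 7 each, Il6 and Tnfaip6 6 each, Csf1 4, Ccl7 2 and Ccl2 1. Per kilobase of 3′ UTR, this came to 14.1 for Il6, 11.8 for Cxcl1, 8.39 for Tnfaip6 and 5.73 for Ptgs2, and to 4.60 for Ccl7, 3.64 for Ccl2, 2.20 for Lif and 1.90 for Csf1. Over 21002 genes the median was 1 pentamer and 1.18 per kilobase. The longer string TTATTTATT occurred 2 times each in Cxcl1 and Lif and 1 time in Ptgs2, and 7.20% of genes held it. The densest 30 bases are shown for the 4 genes with the most pentamers per kilobase, with each ATTTA in capitals, all on the plus strand of GRCm38. They are chr5:90892607-90892636 for Cxcl1, chr5:30019684-30019713 for Il6, chr2:52056611-52056640 for Tnfaip6 and chr1:150105796-150105825 for Ptgs2.
Cxcl1: tcctATTTATTTAtgtATTTATTTAttcca
Il6: atttttaATTTAttgataATTTAaataagt
Tnfaip6: tATTTAagctgaATTTAtattaggATTTAa
Ptgs2: atATTTATTTATTTAtgtgaagaATTTAat

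Reads recovered from the RPKM numbered 2.27e+07 to 2.50e+07 per library in fixed and 2.37e+07 to 2.49e+07 in unfixed cells. In the other table they numbered 2.32e+06 to 7.74e+06 in the isolation label and 1.53e+07 to 1.03e+08 elsewhere, so values of the isolation label rest on the fewest reads. Satellite cell genes were present where the labels say stem cells: Pax7 stood at 65.4 ± 15.5 RPKM in fixed and 29.5 ± 7.96 in unfixed cells, and at 17.9 ± 1.2 in isolated cells (SD). The sum of 10 satellite cell genes with Pax7 among them went the other way, at 1335 ± 210 RPKM in fixed and 2864 ± 247 in unfixed cells. The pull-downs from muscle are labelled as stem cells too, but Pax7 stood at 0.318 ± 0.0581 RPKM in the 6 h label, 0.178 ± 0.0509 in the 1 d label, and at 0.196 ± 0.0453 after 4 d of labelling. The 10 satellite cell genes summed to 163 ± 8.36, 99.2 ± 1.82 and 90.4 ± 0.598 RPKM in the 6 h, 1 d and 4 d labels, against 88.5 ± 1.06 in whole muscle. Summed RPKM of 10 muscle fibre genes was 73382 ± 2906, 138686 ± 4737 and 140577 ± 3975 in the 6 h, 1 d and 4 d labels, against 132187 ± 2884 in whole muscle (SD, n = 4 each). No group was a pull-down without 4tU, so how much unlabelled RNA the pull-downs carried was not measured. The word label below names the pull-down as a whole. In bulk samples, fewer cells of a type and less RNA per cell cannot be told apart. Because each table had its own normalisation, no test crosses them.

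For every member, each library of whole muscle and of RNA labelled in the animal was below each library of the other 4 groups of the larger table, which all came from isolated cells. Between isolated cells and whole muscle, 95.3% of the 14813 genes tested were called in either direction, so a separation of these groups is not particular to the members. In the larger table the ratio of the highest to the lowest group mean was 830 for Cxcl1, 247 for Il6, 207 for Ptgs2 and 125 for Tnfaip6, and 60.4, 28.7, 20.8 and 13.7 for Lif, Ccl2, Ccl7 and Csf1. By mean RPKM, Cxcl1 was the 15th of 16979 genes in DMSO cells and the 18th in isolated cells, but the 9800th in whole muscle. Among the 13938 genes of the fixation table it was the 3640th in fixed cells and the 37th in unfixed cells. Tnfaip6 ranked 9261st in fixed cells and 231st in unfixed cells.

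**Figure D1:**
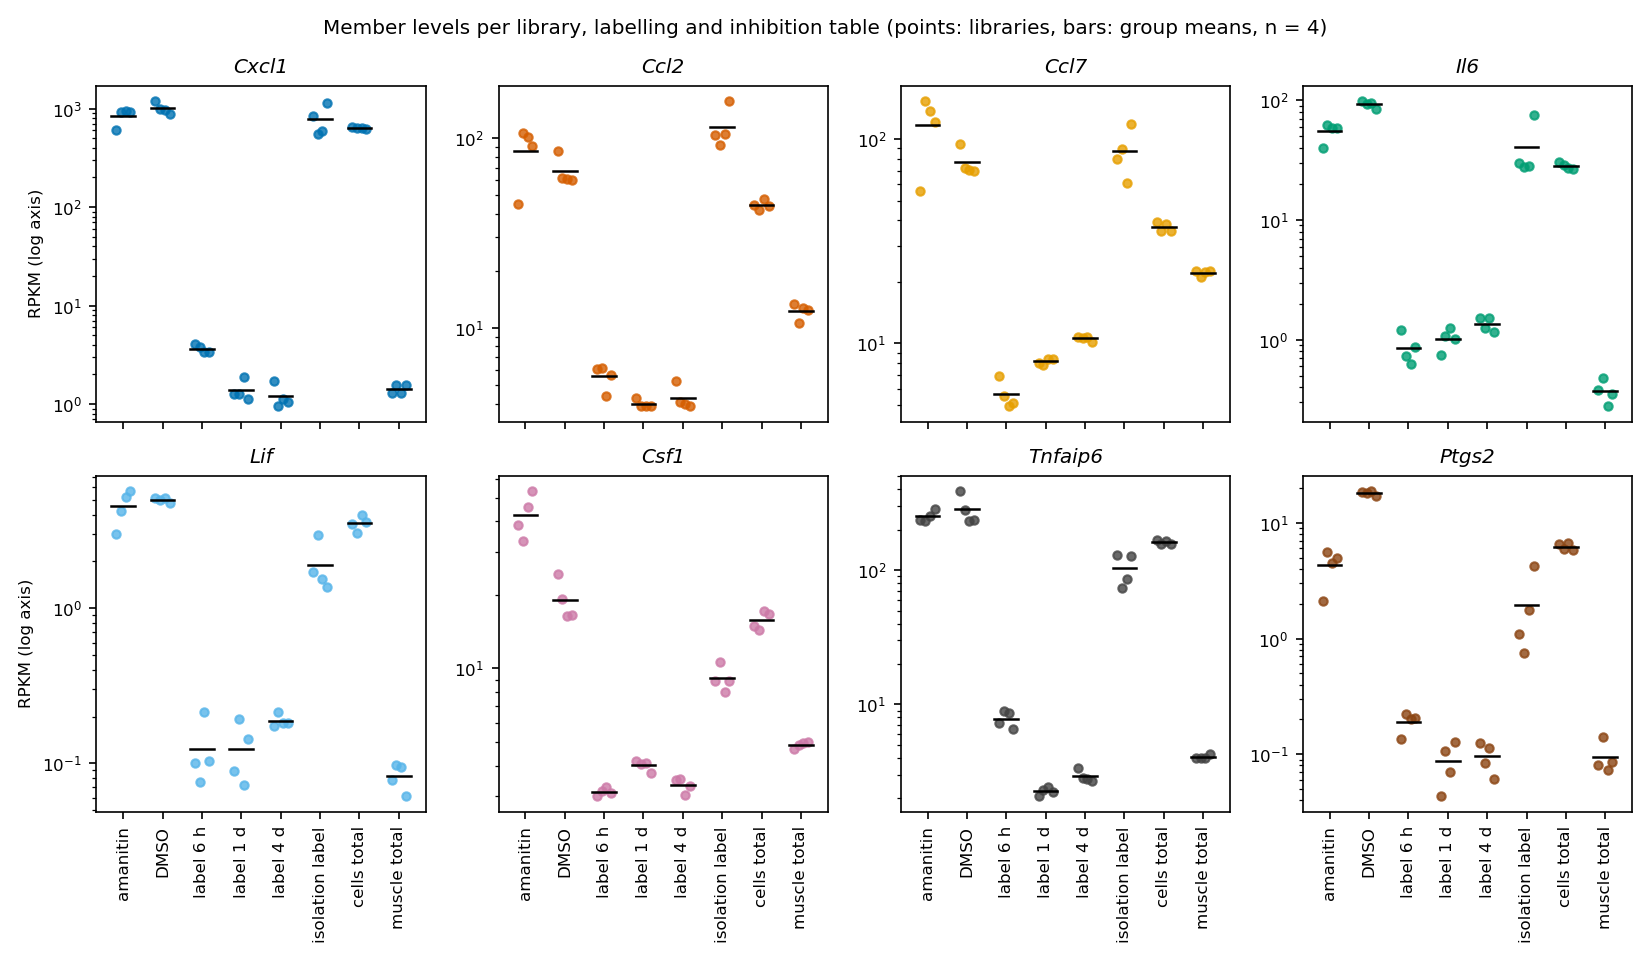
RPKM on a log axis for each of the 8 genes in the 32 libraries of labelling and inhibition, by group, with points for libraries and bars for group means (n = 4 each). The libraries of isolated cells and of the isolation label lie above those of the 6 h, 1 d and 4 d labels and of whole muscle for every gene; for Cxcl1 the isolated cells lie between 619 and 642 and whole muscle between 1.30 and 1.57.

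The order of the groups differed between genes. For Cxcl1 it ran from DMSO cells through α-amanitin cells and the isolation label to isolated cells, each overlapping the next, then separately to the 6 h label, and last to whole muscle and the 1 d and 4 d labels, which overlapped. Ccl2 was highest in the isolation label, followed with overlap by α-amanitin and DMSO cells, then isolated cells, which replicate 1 with α-amanitin overlapped, whole muscle, and the 6 h, 4 d and 1 d labels, which overlapped in that order. Ccl7 ran from α-amanitin cells through the isolation label to DMSO cells with overlap, and then, each apart from the next, isolated cells, whole muscle, and the 4 d, 1 d and 6 h labels. Il6 was highest in DMSO cells and lowest in whole muscle, both apart from their neighbours; α-amanitin cells, the isolation label and isolated cells overlapped in that order, as did the 4 d, 1 d and 6 h labels. Lif ran from DMSO through α-amanitin to isolated cells with overlap, then the isolation label on its own, then the 4 d, 1 d and 6 h labels and whole muscle with overlap. Csf1 was highest in α-amanitin cells, apart from DMSO cells, which overlapped isolated cells; the isolation label, whole muscle and the 1 d label followed apart from each other, and the 4 d and 6 h labels overlapped at the bottom. Tnfaip6 had overlap only between DMSO and α-amanitin cells, followed by isolated cells, the isolation label, the 6 h label, whole muscle, and the 4 d and 1 d labels. Ptgs2 ran from DMSO cells to isolated cells, then to α-amanitin cells and the isolation label, which overlapped, then to the 6 h label, and to the 4 d label, whole muscle and the 1 d label, which overlapped; whole muscle also overlapped the 6 h label.

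The fixation comparison sets cells fixed in the animal before isolation beside cells isolated unfixed. Perfusion, fixation itself, changes during isolation and the mix of cells cannot be told apart in it. All 3 chemokine genes were lower in fixed cells. The values of Cxcl1 given above put it 71.7-fold lower in fixed cells (log2 change -6.16, SE 0.24, adjusted p = 4.57e-06, limma). Ccl2, the monocyte chemokine, stood at 1.46, 1.34, 1.05 and 0.573 RPKM in fixed cells, against 38.3, 109 and 107 RPKM in unfixed cells, and was 49.3-fold lower (log2 change -5.62, SE 0.41, adjusted p = 3.86e-05, limma). Its neighbour Ccl7 stood at 1.36, 1.58, 4.25 and 4.28 RPKM in fixed cells and 45.7, 71.6 and 189 RPKM in unfixed cells, 28-fold lower (log2 change -4.81, SE 0.52, adjusted p = 0.000329, limma). For each of these genes, every fixed library was below every unfixed library, and the lowest unfixed value of Ccl2 and of Ccl7 was that of replicate 1. Fold changes throughout are on the scale of log2(RPKM + 0.5), where the change of a weakly expressed gene comes out too small, and adjusted p-values are Benjamini-Hochberg values over all genes tested, called under 0.05.

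Il6, the gene of the gp130 cytokine interleukin-6, stood at 1.00, 0.682, 4.88 and 0.959 RPKM in fixed cells, against 44.9, 292 and 58.1 RPKM in unfixed cells. It was 47.6-fold lower in fixed cells (log2 change -5.57, SE 0.70, adjusted p = 0.000573, limma). In each group 1 library stood high, fixed replicate 4 and unfixed replicate 2, and without unfixed replicate 2 the log2 change was -4.74. Lif, the gene of a related cytokine, stood at 0.251, 0.691, 0.244 and 0.150 RPKM in fixed and 13.4, 6.67 and 5.61 RPKM in unfixed cells, 10.5-fold lower (log2 change -3.39, SE 0.39, adjusted p = 0.000426, limma), with 15 to 69 reads per library behind the fixed values. Csf1, the macrophage growth factor, stood at 2.78, 2.79, 5.68 and 3.25 RPKM in fixed and 22.9, 26.6 and 31 RPKM in unfixed cells, 6.82-fold lower (log2 change -2.77, SE 0.30, adjusted p = 0.000306, limma). Neither Lif nor Csf1 overlapped between the groups.

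Tnfaip6, the TSG-6 gene, stood at 1.89, 3.54, 2.9 and 4.17 RPKM in fixed cells, against 209, 163 and 272 RPKM in unfixed cells, 59.8-fold lower (log2 change -5.90, SE 0.29, adjusted p = 6.77e-06, limma). Ptgs2, the COX-2 gene, stood at 0.727, 0.642, 0.662 and 0.346 RPKM in fixed and 2.30, 21.2 and 6.49 RPKM in unfixed cells, 6.94-fold lower (log2 change -2.80, SE 0.60, adjusted p = 0.00858, limma). The groups did not overlap for either gene, but the unfixed values of Ptgs2 spread widely, with replicate 2 the highest. In all, 8 of 8 genes were lower in fixed cells, where 10.8% of the 12816 genes tested were called lower and 23% in either direction. The members were chosen with earlier results of these data known, so that count is a description and not a test. Il6, Lif and Ptgs2 passed the filter of 1 RPKM in at least 3 libraries only with the unfixed libraries. The filter itself thus favoured a difference, and the calls of these 3 genes add nothing to that count. The other 5 passed the filter within the fixed libraries as well. Over all genes the median change was 0.07.

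**Figure D2:**
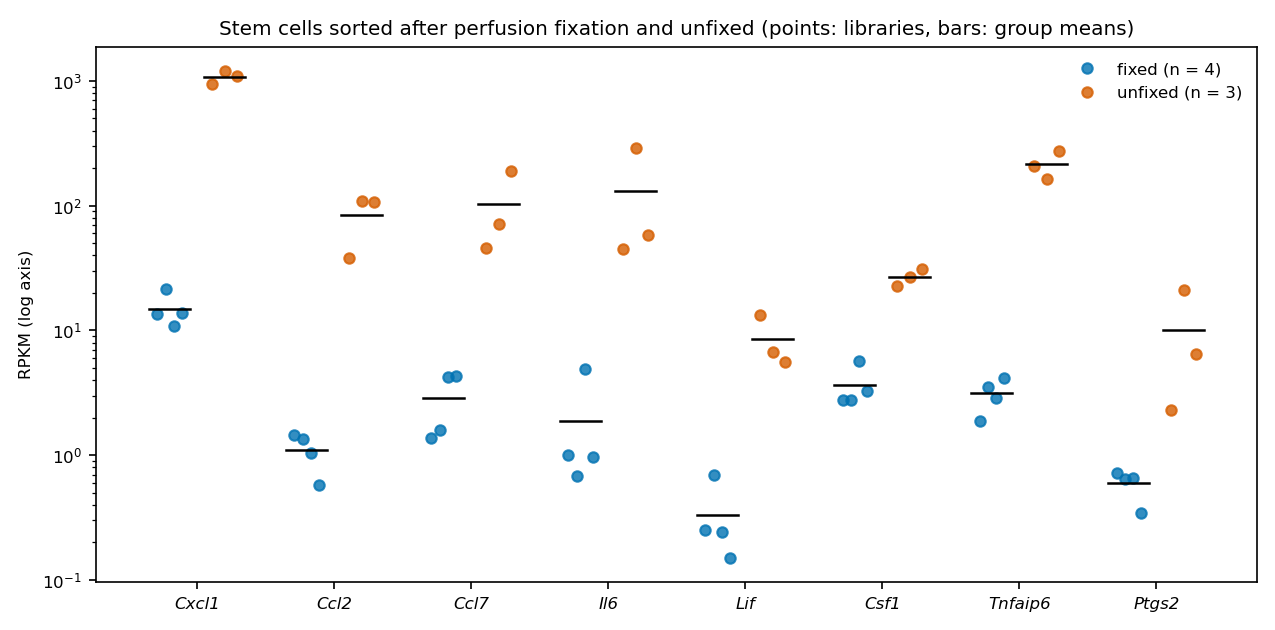
RPKM on a log axis of the 8 genes in fixed cells (n = 4) and unfixed cells (n = 3), with points for libraries and bars for group means. Every fixed library lies below every unfixed library for each gene; Cxcl1 runs from 10.9 to 21.4 in fixed cells and from 948 to 1193 in unfixed cells.

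Other genes of these pathways were lower in fixed cells or did not pass the test, and none was called higher. Over all genes tested, 10.8% were called lower and 12.2% higher. Of the chemokine ligands other than the 3 above, 8 of 18 tested were lower, such as Cxcl2, a close relative of Cxcl1, at 1.30 ± 1.47 RPKM in fixed and 70.1 ± 35.9 in unfixed cells (44.8-fold, adjusted p = 0.000295) and the interferon-inducible Cxcl10 at 1.62 ± 1.10 RPKM in fixed cells and 47.1 ± 27.1 in unfixed cells (22.3-fold, adjusted p = 0.000236). Without unfixed replicate 2 that count was 4 of 17. Of 6 chemokine receptors, 3 were lower, among them the decoy receptor Ackr3 at 20.3 ± 5.09 in fixed and 109 ± 30.3 RPKM in unfixed cells (5.23-fold, adjusted p = 0.000321). Of 10 other cytokines, 3 were lower, led by the neutrophil growth factor Csf3 at 0.248 ± 0.143 RPKM in fixed cells and 20.6 ± 21.3 in unfixed cells (20.1-fold, adjusted p = 0.000874), and that count was 1 when any of the 3 unfixed libraries was left out. Of 16 cytokine receptors, 6 were lower, among them Osmr, the oncostatin M receptor, at 1.25 ± 0.50 in fixed and 24.1 ± 5.65 RPKM in unfixed cells (14.1-fold, adjusted p = 7.53e-05) and Il6st, which codes for gp130, at 11 ± 3.59 RPKM in fixed cells and 55.7 ± 17.9 in unfixed cells (4.92-fold, adjusted p = 0.000819).

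In the prostaglandin pathway 3 of 15 tested genes were lower in fixed cells, among them Ptger4, a receptor for prostaglandin E2, at 1.84 ± 1.22 in fixed and 7.93 ± 1.77 RPKM in unfixed cells (3.95-fold, adjusted p = 0.0103), and without unfixed replicate 3 the count was 0 of 13. Among the genes of hyaluronan and the partners of TSG-6, 3 of 8 were lower, led by the hyaluronan synthase Has1 at 1.18 ± 0.630 in fixed and 80.5 ± 7.01 RPKM in unfixed cells (50.8-fold, adjusted p = 1.03e-05). Ptx3, a pentraxin that binds TSG-6, stood at 1.87 ± 2.44 RPKM in fixed cells and 14.3 ± 2.68 in unfixed cells (8.53-fold, adjusted p = 0.00531). Without fixed replicate 1, 2 genes of that list were called higher as well. All p-values here are limma's, adjusted over all genes. Of the genes called lower, 4 chemokine ligands, 2 chemokine receptors, 2 cytokines, 1 cytokine receptor, 1 prostaglandin gene and 2 hyaluronan genes passed the filter only with the unfixed libraries, Cxcl2, Csf3, Osmr, Has1 and Ptx3 among them. The filter itself favoured a difference for these genes, and their calls add nothing to the counts.

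Genes of other cell types also differed between the groups. Summed RPKM of 10 endothelial genes was 129.9 ± 94.6 in fixed and 769.9 ± 586 in unfixed cells, with 9 of 10 called lower. For 10 satellite cell genes it was 1335 ± 210.2 in fixed cells and 2864 ± 247 in unfixed cells, with 2 called higher and 4 lower. For macrophage genes it was 95.6 ± 31.4 in fixed cells and 153 ± 168 in unfixed cells, with 0 of 8 called, and for fibro-adipogenic genes 1562 ± 453 in fixed cells and 2342 ± 540.2 in unfixed cells, with 3 of 10 lower. Neutrophil genes summed to 92.9 to 2031 RPKM in fixed and 6.24 to 21.6 in unfixed cells, with 4 of 7 called higher. The highest neutrophil sum was that of fixed replicate 4, the library with the highest fixed values of Il6 and Csf1. Muscle fibre genes summed to 284 ± 224 RPKM in fixed cells and 1759 ± 1696 in unfixed cells, with 3 of 9 lower, and smooth muscle and pericyte genes to 959 ± 405 in fixed cells and 491 ± 165 in unfixed cells, with 1 of 8 higher and 3 lower. Mitochondrially encoded transcripts summed to 27720.2 ± 6571 RPKM in fixed cells and 9145 ± 3295 in unfixed cells, with 7 of 10 higher. The part of these cell types and transcripts in the differences was not tested.

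All 8 genes were higher in isolated stem cells than in whole muscle, over a background where 95.3% of 14813 genes tested were called, 48.8% higher and 46.5% lower. Il6, Lif and Ptgs2 passed the filter only through isolated cells, so their calls add nothing to that count. Cxcl1 stood at 642, 633, 635 and 619 RPKM in isolated cells, against 1.30, 1.57, 1.30 and 1.56 RPKM in whole muscle, 328-fold higher (log2 change 8.36, SE 0.05, adjusted p = 9.81e-17, limma). Il6 stood at 30.4, 28.9, 27.3 and 26.4 RPKM in isolated cells and 0.380, 0.480, 0.278 and 0.355 in whole muscle, 33-fold higher (adjusted p = 9.93e-15). Replicates of each group lay close together and the groups were far apart for both genes. Tnfaip6 stood at 167, 157, 165 and 156 RPKM in isolated cells and 4.01, 3.96, 4.00 and 4.28 in whole muscle, 35.4-fold higher (adjusted p = 1.52e-16).

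The monocyte chemokines differed less, and whole muscle held both of them in every library. Ccl2 stood at 44.7, 41.9, 47.9 and 44.1 RPKM in isolated cells and 13.4, 10.7, 12.8 and 12.4 in whole muscle, 3.52-fold higher (adjusted p = 4.04e-11), and Ccl7 at 39.1, 35.3, 38.2 and 35.3 RPKM in isolated cells and 22.7, 21.1, 22.3 and 22.5 in whole muscle, 1.65-fold higher (adjusted p = 5.90e-09). Csf1 stood at 15.8 ± 1.36 RPKM in isolated cells and 4.86 ± 0.144 in whole muscle (3.03-fold, adjusted p = 3.77e-11). No member overlapped between the groups, in a comparison where 95.3% of all genes tested were called. Lif at 3.52 ± 0.381 RPKM in isolated cells and 0.0829 ± 0.0169 in whole muscle and Ptgs2 at 6.23 ± 0.441 RPKM in isolated cells and 0.0955 ± 0.0312 in whole muscle were 6.87-fold and 11.3-fold higher in isolated cells, with 9 to 26 and 9 to 19 reads per library in whole muscle. Lif, Ptgs2 and Il6 passed the filter only through isolated cells, and the filter itself favoured a difference for them. When libraries were scaled to all reads, the all-gene median was 1.47 in place of 0.06. A rescaling moves each gene and that median nearly alike, so distances from the median are given below as values and not as a test of the scaling.

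Counts of the other pathway genes stand beside 48.8% of all genes higher and 46.5% lower, and they moved with the scaling. When libraries were scaled to all reads, 10847 of all genes were higher and 3384 lower. Of 19 chemokine ligands, 9 were higher and 10 lower in isolated cells, a split of 12 and 5 when libraries were scaled to all reads. Cxcl2 stood at 24.6 ± 1.62 RPKM in isolated cells and 0.568 ± 0.167 in whole muscle (23.6-fold, adjusted p = 3.39e-13), while the myeloid chemokine Ccl6 stood at 1.52 ± 0.294 RPKM in isolated cells and 91.7 ± 5.26 in whole muscle (lower, 45.8-fold, adjusted p = 2.35e-14). Of 11 cytokines 7 were higher and 4 lower, or 9 and 1 with all reads, such as Clcf1, a gp130 ligand, at 22.2 ± 0.806 in isolated cells and 0.426 ± 0.0430 RPKM in whole muscle (24.5-fold, adjusted p = 1.22e-15). Of 15 cytokine receptors 8 were higher and 7 lower, or 13 and 2 with all reads, and Osmr was higher (10.1-fold, adjusted p = 1.52e-13). Of 15 prostaglandin genes 7 were higher and 6 lower, or 11 and 4 with all reads, with Ptger4 higher (5.51-fold, adjusted p = 9.73e-13) and the synthase Ptges2 lower (12.2-fold, adjusted p = 3.02e-13). Has1 stood at 26.4 ± 1.88 RPKM in isolated cells and 0.973 ± 0.177 in whole muscle (18.4-fold, adjusted p = 1.48e-13), 1 of 7 higher and 3 lower among 10 hyaluronan genes, or 9 and 1 with all reads. Of the genes called higher, 4 chemokine ligands, 5 cytokines, 2 cytokine receptors, 6 prostaglandin genes and 5 hyaluronan genes passed the filter only through isolated cells, Cxcl2, Clcf1, Osmr, Ptger4 and Has1 among them. The filter itself favoured a difference for these genes, and their calls add nothing to the counts. Macrophage genes summed to 24.6 ± 1.06 RPKM in isolated cells and 832 ± 38.6 in whole muscle, and satellite cell genes to 1463 ± 16.5 in isolated cells and 88.5 ± 1.06 in whole muscle.

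The pull-down of the isolation label held all 8 genes, and set against the total RNA of isolated cells it held more of the monocyte chemokines. Ccl2 stood at 103, 92.4, 105 and 156 RPKM in the isolation label, against 44.7, 41.9, 47.9 and 44.1 RPKM in total RNA, 2.5-fold higher (log2 change 1.32, SE 0.16, adjusted p = 9.45e-05, limma). Ccl7 stood at 79.9, 89.6, 60.8 and 118 RPKM in the label and 39.1, 35.3, 38.2 and 35.3 in total RNA, 2.28-fold higher (log2 change 1.19, SE 0.18, adjusted p = 0.000398, limma), a call that was lost when libraries were scaled to all reads (log2 change 0.49, adjusted p = 0.0523). Neither overlapped between the groups. The all-gene median was -0.07 on the authors' scale and -0.69 with all reads, and relative to it Ccl2 stood at 1.39, 1.38 and 1.32 and Ccl7 at 1.26, 1.25 and 1.18 under the authors' scale, median-of-ratios factors and all reads. With 8 of 8 members tested, 2 were called higher and 4 lower, where 29.8% of 14863 genes tested were called higher, 29.7% lower and 59.5% either way.

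The 4 lower genes were Ptgs2, Lif, Csf1 and Tnfaip6. Ptgs2 stood at 1.10, 0.749, 1.75 and 4.25 RPKM in the isolation label, on 8 to 100 reads, and 6.54, 5.92, 6.67 and 5.79 in total RNA, 3.13-fold lower (log2 change -1.64, SE 0.37, adjusted p = 0.00378, limma). Lif stood at 1.71, 2.94, 1.53 and 1.38 in the label, on 33 to 77 reads, and 3.48, 3.04, 3.96 and 3.59 RPKM in total RNA, 1.72-fold lower (adjusted p = 0.0133). Csf1 stood at 8.90, 10.6, 8.03 and 8.86 RPKM in the isolation label and 15.0, 14.3, 17.2 and 16.7 in isolated cells, 1.70-fold lower (adjusted p = 0.000739), and Tnfaip6 at 129, 73.5, 86.6 and 126 RPKM in the isolation label and 167, 157, 165 and 156 in isolated cells, 1.60-fold lower (adjusted p = 0.00977). Every label library was below every library of total RNA for these 4 genes. Cxcl1 stood at 840.4, 548, 588 and 1132 RPKM in the label, against 642, 633, 635 and 619 in total RNA (log2 change 0.24, adjusted p = 0.372), and Il6 at 29.8, 27.9, 28.3 and 75.4 RPKM in the isolation label and 30.4, 28.9, 27.3 and 26.4 in isolated cells (log2 change 0.37, adjusted p = 0.308); both overlapped and both changed sign when libraries were scaled to all reads, to -0.46 and -0.32. Replicate 4 of the label was the highest for Cxcl1, Ccl2, Ccl7, Il6 and Ptgs2.

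Chemokine ligands other than the 3 members were mostly higher in the isolation label, 10 of 19 against 1 lower, or 10 and 5 when libraries were scaled to all reads. Over all genes tested, 29.8% were called higher and 29.7% lower, and with all reads 3005 genes were higher and 7237 lower. Ccl8, a monocyte chemokine, stood at 73.1 ± 8.40 RPKM in the label and 2.67 ± 0.332 in total RNA (23.2-fold, adjusted p = 6.18e-08), and Ccl6 at 27.8 ± 13.0 RPKM in the isolation label and 1.52 ± 0.294 in isolated cells (12.8-fold, adjusted p = 1.75e-05). Of 13 cytokines 5 were higher and 2 lower, 3 and 3 with all reads and 2 and 2 without label replicate 3, with Csf3 at 32.4 ± 13.2 in the label and 2.34 ± 0.221 RPKM in total RNA (11-fold, adjusted p = 3.57e-06). Cytokine receptors had 4 of 15 higher and 7 lower, Il6st among the lower at 15.4 ± 1.78 RPKM in the isolation label and 41.2 ± 1.23 in isolated cells (2.64-fold, adjusted p = 6.86e-06). Prostaglandin genes had 4 of 16 higher and 2 lower, 3 and 5 with all reads, and Ptger4 stood at 2.48 ± 0.687 in the label and 6.71 ± 0.482 RPKM in total RNA (lower, 2.47-fold, adjusted p = 0.000483). Muscle fibre genes summed to 22384 ± 14703 RPKM in the label and 159 ± 97.6 in total RNA, with 10 of 10 called higher, macrophage genes to 382 ± 59.3 in the isolation label and 24.6 ± 1.06 in isolated cells, with 8 of 9 higher, and satellite cell genes to 812 ± 199 in the isolation label and 1463 ± 16.5 in isolated cells, with 8 of 10 lower. The part of these transcripts in the member values was not tested.

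The 6 h label was pulled down from whole muscle, and the isolation label, also of about 6 h, from purified cells. All 8 genes were lower in the 6 h label. Il6, Lif and Ptgs2 passed the filter only through the isolation label, so their calls add nothing to that count. Cxcl1 stood at 4.07, 3.79, 3.37 and 3.40 RPKM in the 6 h label, against 840.4, 548, 588 and 1132 RPKM in the isolation label, 179.7-fold lower (log2 change -7.49, SE 0.22, adjusted p = 3.62e-08, limma). Il6 stood at 1.21, 0.731, 0.630 and 0.865 RPKM in the 6 h label and 29.8, 27.9, 28.3 and 75.4 in the isolation label, 27.6-fold lower (log2 change -4.79, SE 0.32, adjusted p = 3.30e-06, limma). For both, the highest library of the 6 h label was far below the lowest of the isolation label. Ccl2 stood at 6.11, 6.14, 4.4 and 5.64 RPKM in the 6 h label and averaged 114 ± 28.6 in the isolation label, 18.7-fold lower (adjusted p = 3.83e-07). Ccl7 stood at 6.93, 5.54, 4.91 and 5.09 RPKM in the 6 h label and averaged 87.1 ± 23.8 in the isolation label, 14-fold lower (adjusted p = 1.20e-06). Tnfaip6 stood at 7.29, 8.90, 8.60 and 6.56 RPKM in the 6 h label and averaged 104 ± 28 in the isolation label, 12.2-fold lower (adjusted p = 1.49e-06).

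The remaining genes were lower by less. Csf1 stood at 2.99, 3.14, 3.26 and 3.09 RPKM in the 6 h label and averaged 9.10 ± 1.09 in the isolation label, 2.64-fold lower (adjusted p = 2.87e-05). Lif averaged 0.124 ± 0.0623 RPKM in the 6 h label and 1.89 ± 0.716 in the isolation label, 3.73-fold lower (adjusted p = 0.000105), and Ptgs2 0.191 ± 0.0387 RPKM in the 6 h label and 1.96 ± 1.58 in the isolation label, 3.11-fold lower (adjusted p = 0.00414). The groups did not overlap for any of the 8. Of 13003 genes tested, 24.4% were called lower and 63.0% either way. Lif, Ptgs2 and Il6 passed the filter only through the isolation label, and the filter itself favoured a difference for them. Over all genes the median was 0.31, or -0.18 when libraries were scaled to all reads, under which all 8 stayed lower. Satellite cell genes were lower too, at a summed 163 ± 8.36 RPKM in the 6 h label and 812 ± 199 in the isolation label, with 10 of 10 called lower and a median log2 change of -3.14. Muscle fibre genes summed to 73382 ± 2906 in the 6 h label and 22384 ± 14703 in the isolation label, with 9 of 10 higher, macrophage genes to 548 ± 36.4 in the 6 h label and 382 ± 59.3 in the isolation label, with 6 of 10 higher and 1 lower, and neutrophil genes to 18.3 ± 2.27 in the 6 h label and 118 ± 20.7 in the isolation label, with 6 of 6 tested lower. Their part in the member values was not tested.

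Most other chemokine ligands were lower in the 6 h label too, while some receptors were higher. Over all genes tested, 38.5% were called higher and 24.4% lower, and with all reads 2577 genes were higher and 4628 lower. Of 19 chemokine ligands 2 were higher and 14 lower in the 6 h label, such as Cxcl2 at 1.92 ± 0.343 RPKM in the 6 h label and 28.1 ± 6.94 in the isolation label (11.7-fold, adjusted p = 1.44e-06). Of 11 cytokines 1 was higher and 4 lower, 0 and 7 with all reads, and 2 or 3 lower without replicate 1, 3 or 4 of the 6 h label or replicate 2 of the isolation label, including Clcf1 at 0.914 ± 0.143 RPKM in the 6 h label and 18.8 ± 5.16 in the isolation label (13.3-fold, adjusted p = 1.24e-06). Among 14 cytokine receptors 4 were higher and 6 lower, or 2 and 7 with all reads: Il6ra, the receptor subunit specific to IL-6, stood at 22.6 ± 2.89 RPKM in the 6 h label and 2.41 ± 0.757 in the isolation label (higher, 8.09-fold, adjusted p = 3.84e-06), and Lifr, the LIF receptor, at 12.0 ± 0.512 RPKM in the 6 h label and 2.89 ± 0.242 in the isolation label (higher, 3.68-fold, adjusted p = 3.13e-06). Hpgd, which breaks prostaglandins down, stood at 16.7 ± 1.15 RPKM in the 6 h label and 2.06 ± 0.736 in the isolation label (higher, 6.90-fold, adjusted p = 4.37e-06), 1 of 5 higher and 4 lower among 16 prostaglandin genes, or 2 and 7 with all reads. Has1 was lower (9.75-fold, adjusted p = 2.46e-05). Of the genes called lower, 3 chemokine ligands, 3 cytokines with Clcf1 among them, 2 prostaglandin genes and 1 hyaluronan gene passed the filter only through the isolation label. The filter itself favoured a difference for these genes, and their calls add nothing to the counts. The pull-downs came from different starting material, whole muscle and purified cells, so tissue, place of labelling and isolation cannot be told apart here.

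Set against the total RNA of the same kind of tissue, the pull-down of the 6 h label held more Cxcl1 and Tnfaip6 and less Ccl2, Ccl7 and Csf1. Cxcl1 averaged 3.66 ± 0.334 RPKM in the 6 h label and 1.43 ± 0.152 in whole muscle, 2.15-fold higher (log2 change 1.10, SE 0.07, adjusted p = 8.43e-09, limma). Tnfaip6 averaged 7.84 ± 1.10 RPKM in the 6 h label and 4.07 ± 0.146 in whole muscle, 1.81-fold higher (log2 change 0.86, SE 0.08, adjusted p = 3.41e-07, limma). All 4 libraries of the label were above all 4 of whole muscle for both genes. Ccl2 averaged 5.57 ± 0.812 RPKM in the 6 h label and 12.3 ± 1.19 in whole muscle (2.12-fold lower, adjusted p = 1.73e-07). Ccl7 averaged 5.62 ± 0.918 RPKM in the 6 h label and 22.1 ± 0.721 in whole muscle (3.73-fold lower, adjusted p = 1.61e-10), and Csf1 3.12 ± 0.112 RPKM in the 6 h label and 4.86 ± 0.144 in whole muscle (1.48-fold lower, adjusted p = 5.92e-08). None of these 5 overlapped between the groups, and 90% of the 11746 genes tested were called either way, 45.6% higher and 44.4% lower. Il6, Lif and Ptgs2 did not pass the filter: Il6 stood at 1.21, 0.731, 0.630 and 0.865 RPKM in the 6 h label, against 0.380, 0.480, 0.278 and 0.355 in whole muscle, on 19 to 63 reads in the 6 h label and 11 to 19 in whole muscle. Each Il6 library of the 6 h label was above each of whole muscle. The all-gene median was 0.02, or 0.32 when libraries were scaled to all reads, under which the 5 tested genes kept their directions. Ptgs2 stood at 0.135, 0.224, 0.200 and 0.205 RPKM in the 6 h label and 0.0815, 0.142, 0.0730 and 0.0859 in whole muscle, and Lif at 0.101, 0.0761, 0.216 and 0.103 RPKM in the 6 h label and 0.0776, 0.0974, 0.0952 and 0.0613 in whole muscle, and for both genes the groups overlapped. Macrophage genes summed to 548 ± 36.4 RPKM in the 6 h label and 832 ± 38.6 in whole muscle, with 9 of 10 lower and 1 higher, neutrophil genes to 18.3 ± 2.27 in the 6 h label and 68.2 ± 1.86 in whole muscle, with 7 of 7 tested lower, and muscle fibre genes, at the sums given above, had 10 of 10 lower. Satellite cell genes summed to 163 ± 8.36 RPKM in the 6 h label and 88.5 ± 1.06 in whole muscle, with 5 of 8 higher and 3 lower. The part of these transcripts in the member values was not tested.

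With longer labelling, Cxcl1 and Tnfaip6 no longer stood above whole muscle. In the 1 d label Cxcl1 stood at 1.26, 1.27, 1.86 and 1.14 RPKM and overlapped whole muscle (log2 change -0.05, adjusted p = 0.661); the sign changed to 0.10 when libraries were scaled to all reads. Tnfaip6 stood at 2.07, 2.32, 2.40 and 2.24 RPKM, 1.66-fold below whole muscle (adjusted p = 2.36e-08). Ccl2 at 4.26, 3.90, 3.89 and 3.87 and Ccl7 at 8.0, 7.84, 8.41 and 8.41 RPKM were 2.86-fold (adjusted p = 2.44e-10) and 2.61-fold lower (adjusted p = 3.77e-11). Csf1 stood at 4.19, 4.04, 4.10 and 3.73 RPKM, 1.19-fold lower (adjusted p = 0.000293), a call lost when libraries were scaled to all reads (log2 change -0.05, adjusted p = 0.244) and with all groups in 1 fit (adjusted p = 0.0880). Il6 was the only member called above whole muscle, at 0.744, 1.07, 1.26 and 1.02 RPKM in the 1 d label, 1.74-fold higher (adjusted p = 6.98e-06). Il6 passed the filter only through the label. The filter itself favoured a difference, and the call adds nothing to the values. The all-gene median was -0.19, or 0.01 with all reads. Of 11158 genes tested, 28.2% were called higher, 54.7% lower and 82.9% either way.

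In the 4 d label Ccl2, Ccl7, Csf1 and Tnfaip6 were below whole muscle. Il6 stood at 1.51, 1.25, 1.52 and 1.17 RPKM in the 4 d label, 2.13-fold above whole muscle (adjusted p = 9.89e-08), again having passed the filter only through the label. The filter favoured that difference too, and the call adds nothing to the values. Ccl2 stood at 5.24, 4.06, 3.98 and 3.87 RPKM, 2.69-fold lower than whole muscle (adjusted p = 1.10e-08), and Ccl7 at 10.7, 10.7, 10.8 and 10.1 RPKM, 2.05-fold lower (adjusted p = 1.35e-10). Csf1 at 3.48, 3.53, 3.03 and 3.30 RPKM was 1.40-fold lower (adjusted p = 1.34e-06) and Tnfaip6 at 3.36, 2.85, 2.80 and 2.68 RPKM 1.34-fold lower (adjusted p = 3.11e-05). These 5 genes did not overlap with whole muscle. Cxcl1 at 1.73, 0.948, 1.13 and 1.04 RPKM overlapped it (log2 change -0.19, adjusted p = 0.136), and without replicate 1 of the 4 d label it was called lower (log2 change -0.33, adjusted p = 0.00129). The all-gene median was -0.21, or -0.03 with all reads. Of 11347 genes tested, 28.1% were called higher, 56.4% lower and 84.5% either way. Lif at 0.0723 to 0.193 RPKM in the 1 d label and 0.173 to 0.214 in the 4 d label, and Ptgs2 at 0.0434 to 0.128 RPKM in the 1 d label and 0.0614 to 0.124 after 4 d, did not pass the filter. Macrophage genes summed to 396 ± 18.7 RPKM in the 1 d label and 479 ± 23.5 after 4 d, against 832 ± 38.6 in whole muscle, with 10 of 10 lower at 1 d and 8 of 10 at 4 d, and their part was not tested. The 3 comparisons share the 4 libraries of whole muscle, so their values are set side by side only.

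**Figure D3:**
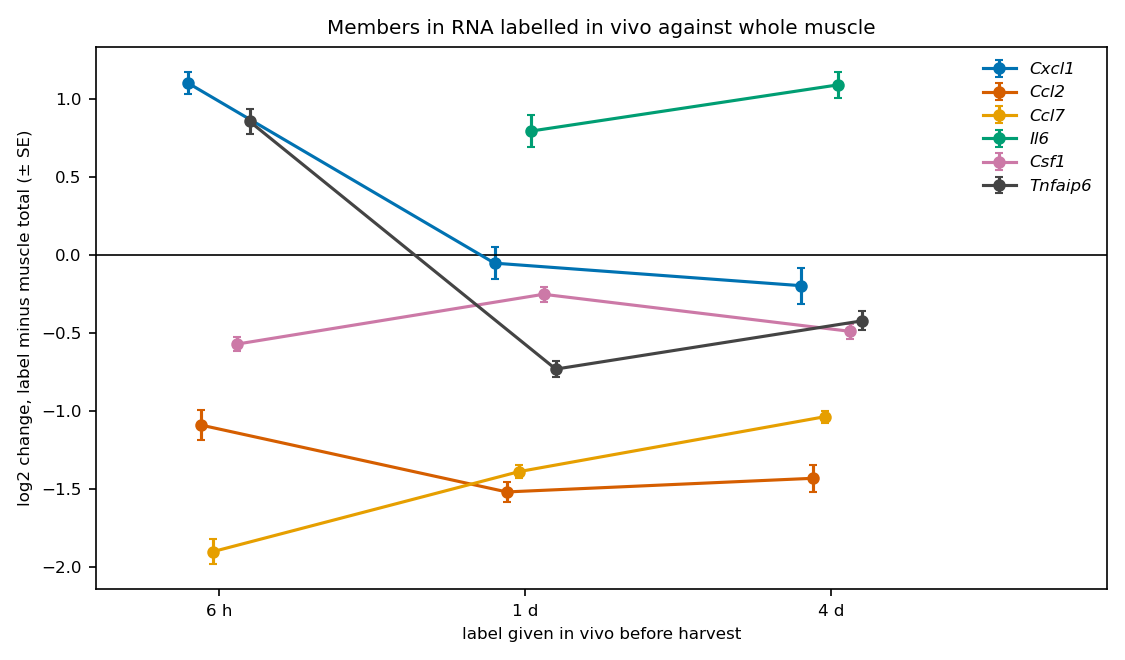
Log2 change of each tested member in RNA labelled in vivo against whole muscle (points, with SE bars; n = 4 libraries per group), by length of labelling. Cxcl1 and Tnfaip6 lie above 0 at 6 h (1.10 and 0.86), and Ccl2, Ccl7 and Csf1 lie below 0 at each time. Il6, tested at 1 d and 4 d, lies at 0.80 and 1.09. It passed the filter only through the labels, which favoured a difference. Cxcl1 at 1 d changes sign when libraries were scaled to all reads.

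The direct comparison of the 4 d label with the 6 h label needs no muscle libraries. Tnfaip6 averaged 2.92 ± 0.303 RPKM in the 4 d label, against 7.84 ± 1.10 in the 6 h label, 2.43-fold lower (log2 change -1.28, SE 0.09, adjusted p = 3.91e-08, limma) and Cxcl1 1.21 ± 0.351 RPKM in the 4 d label, against 3.66 ± 0.334 in the 6 h label, 2.46-fold lower (log2 change -1.30, SE 0.12, adjusted p = 3.53e-07, limma), both without overlap. Ccl7 averaged 10.6 ± 0.306 RPKM in the 4 d label, against 5.62 ± 0.918 in the 6 h label, 1.82-fold higher (log2 change 0.87, SE 0.08, adjusted p = 6.85e-07, limma), also without overlap. Il6 averaged 1.36 ± 0.180 RPKM in the 4 d label, against 0.860 ± 0.254 in the 6 h label (1.38-fold higher, adjusted p = 0.00253) and Ccl2 4.29 ± 0.638 RPKM in the 4 d label, against 5.57 ± 0.812 in the 6 h label (1.27-fold lower, adjusted p = 0.00895), with overlapping libraries, and the call of Ccl2 was lost with median-of-ratios factors (log2 change -0.19, adjusted p = 0.107) and with all groups in 1 fit (adjusted p = 0.110). Csf1 did not pass the test (log2 change 0.08, adjusted p = 0.161), its sign changed when libraries were scaled to all reads (-0.06), and it was called higher with median-of-ratios factors (0.23, adjusted p = 9.86e-04). The all-gene median was -0.18, or -0.03 with median-of-ratios factors and -0.31 with all reads. Of 11975 genes tested, 36.1% were called higher, 52.7% lower and 88.7% either way. Il6 passed the filter only with the 4 d label, which favoured a difference, and its call adds nothing to the values. Lif and Ptgs2 were not tested.

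Among the other pathway genes, Il6ra was higher in each label than in whole muscle. It stood at 22.6 ± 2.89 RPKM in the 6 h label, 7.62 ± 0.336 after 1 d and 3.81 ± 0.236 after 4 d of labelling, against 2.60 ± 0.133 in whole muscle (7.40-fold, adjusted p = 2.86e-12 at 6 h). Of 18 chemokine ligands tested at 6 h, 6 were higher and 11 lower than whole muscle, or 9 and 8 with all reads, and 3 of the higher and 2 of the lower passed the filter through 1 group only. Over all genes tested at 6 h, 45.6% were called higher and 44.4% lower, and with all reads 6972 genes were higher and 3574 lower. Ccl9 was higher at 52.5 ± 2.21 RPKM in the 6 h label and 15.5 ± 0.644 in whole muscle (3.31-fold, adjusted p = 8.01e-13), and Cxcl13, a B cell chemokine, was lower (4.73-fold, adjusted p = 3.75e-13). Cytokine receptors had 9 of 14 higher and 4 lower, or 9 and 1 with all reads, and prostaglandin genes 8 of 12 higher and 4 lower, among them Hpgd at 16.7 ± 1.15 RPKM in the 6 h label and 7.67 ± 0.736 in whole muscle (higher, 2.11-fold, adjusted p = 4.79e-09). Ligands at 1 d and 4 d were mostly lower than whole muscle, 11 of 15 and 11 of 16, with 4 and 3 higher, and at 4 d 9 lower and 5 higher with all reads. Over all genes tested, 54.7% were called lower at 1 d and 56.4% at 4 d. With all reads, 4475 of all genes were higher and 5017 lower at 4 d. Neutrophil genes summed to 208 ± 40.5 RPKM in the 4 d label, against 18.3 ± 2.27 in the 6 h label, with 7 of 7 higher, and their part in the member values was not tested.

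Cells isolated with α-amanitin, which blocks RNA polymerase II, were set against cells isolated with its solvent. With α-amanitin, Ptgs2 and Il6 were lower and Csf1 was higher than with DMSO, and the other 5 genes did not pass the test. Ptgs2 stood at 2.12, 5.59, 4.50 and 4.99 RPKM with α-amanitin, against 18.4, 18.1, 18.7 and 17 RPKM with DMSO (log2 change -2.02, SE 0.25, adjusted p = 0.000838, limma). Il6 stood at 39.8, 62.2, 59.1 and 58.6 RPKM with α-amanitin and 97.9, 92.0, 94.0 and 84.6 with DMSO (log2 change -0.76, SE 0.20, adjusted p = 0.0143, limma). Both sets of libraries were separate, and replicate 1 with α-amanitin was the lowest for each gene. Csf1 stood at 38.6, 33.2, 45.8 and 53.2 RPKM with α-amanitin and 24.3, 19.3, 16.3 and 16.6 with DMSO, also without overlap (log2 change 1.13, SE 0.21, adjusted p = 0.00512, limma), but -0.46 (adjusted p = 0.0871) when libraries were scaled to mitochondrially encoded transcripts, which RNA polymerase II does not make. Those transcripts summed to 8036 ± 2321 RPKM with α-amanitin and 2523 ± 816 with DMSO. The sums were 45042 ± 1776 in whole muscle and 2173 ± 329 in isolated cells. Muscle fibre genes were also higher with α-amanitin, 10 of 10 called, and the part of fibre RNA in this scaling was not tested.

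Ccl2 stood at 45.0, 106, 101 and 90.9 RPKM with α-amanitin and 85.4, 61.9, 61.1 and 59.9 with DMSO, and Ccl7 at 55.6, 153, 138 and 121 RPKM in α-amanitin cells and 94.5, 72.4, 70.8 and 70.0 in DMSO cells. Replicate 1 with α-amanitin was below all DMSO libraries for both, while the other α-amanitin libraries were above all of them. The log2 changes of Ccl2 and Ccl7 were 0.30 and 0.51 (adjusted p = 0.391 and 0.180, limma). Without α-amanitin replicate 1 they were 0.58 and 0.84, both called higher (adjusted p = 0.00666 and 3.93e-04), and with mitochondrial scaling -1.32 and -1.10. Cxcl1 stood at 603, 932, 938 and 923 RPKM with α-amanitin and 1185, 990.2, 959 and 884 with DMSO, Lif at 3.0, 4.23, 5.19 and 5.67 RPKM in α-amanitin cells and 5.15, 4.94, 5.15 and 4.78 in DMSO cells, and Tnfaip6 at 235, 232, 253 and 287 RPKM in α-amanitin cells and 388, 279.7, 231 and 234 in DMSO cells. These 3 genes overlapped, with log2 changes of -0.26, -0.16 and -0.14, and they were called lower when libraries were scaled to all reads and with mitochondrial scaling. In all, 1 of 8 members was called higher and 2 lower, where 33.9% of 13710 genes tested were called higher, 10.3% lower and 44.2% either way. With all reads the members called numbered 6, where 3223 of all genes were called higher and 4163 lower. With mitochondrial scaling they numbered 7, where 11970 of all genes were called, 11686 of them lower. Without α-amanitin replicate 1 the members called numbered 5, and the share of all genes without it is not given here.

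Which genes count as lower with α-amanitin depended on the scaling, and the all-gene median was 0.28 on the authors' scale, 0.22 with median-of-ratios factors, -0.19 when libraries were scaled to all reads and -1.25 with mitochondrial scaling. Distances from that median, nearly fixed by construction, are given as values. Ptgs2 stood at -2.30, -2.29, -2.35 and -2.43 from it under these 4 scalings, and Il6 at -1.04, -1.04, -1.09 and -1.13. Csf1 stood at 0.86, 0.85, 0.82 and 0.79, above the median under each. Cxcl1 stood at -0.53, -0.54, -0.59 and -0.63, Tnfaip6 at -0.42, -0.42, -0.47 and -0.51 and Lif at -0.44, -0.44, -0.46 and -0.49. Ccl7 stood at 0.24, 0.23, 0.19 and 0.14, and Ccl2 at 0.02, 0.02, -0.03 and -0.07, where its sign changed with all reads and with mitochondrial scaling.

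**Figure D4:**
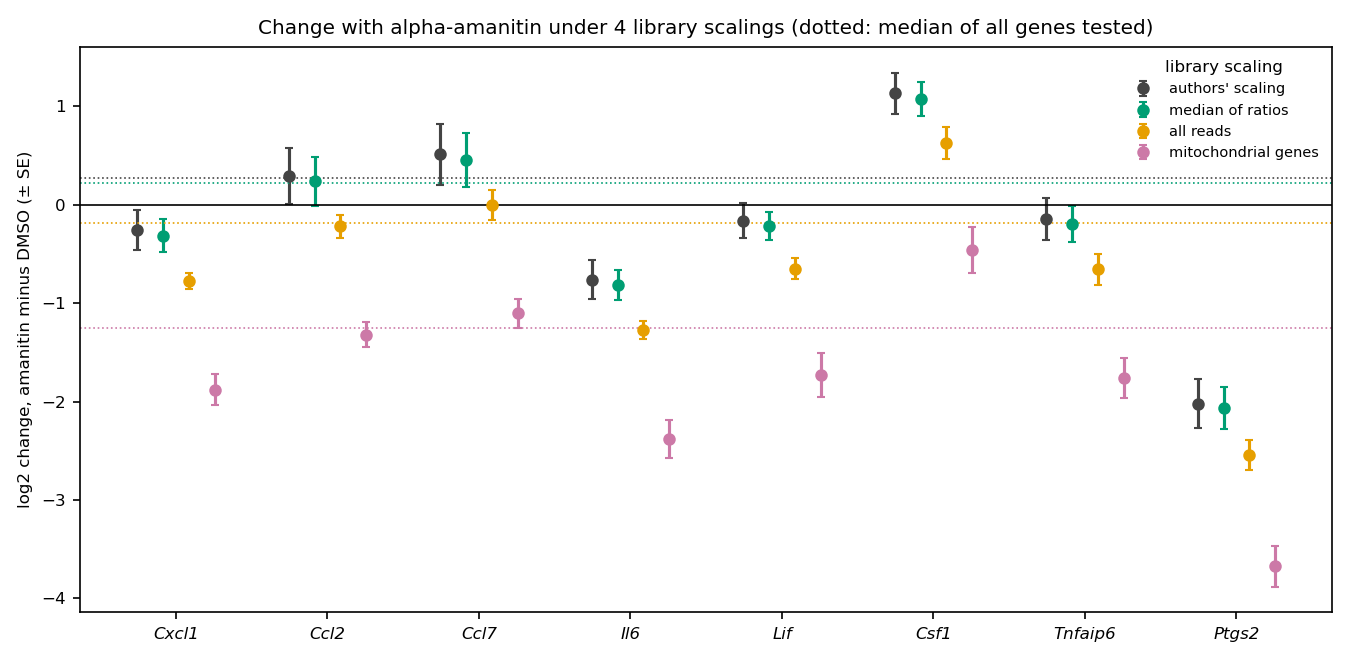
Log2 change with α-amanitin relative to DMSO for the 8 genes (points, with SE bars; n = 4 libraries per group) under 4 library scalings, with the median of all genes tested as dotted lines. Ptgs2 lies lowest of the 8 under every scaling (-2.02 on the authors' scale) and Csf1 highest (1.13 on the authors' scale, -0.46 with mitochondrial scaling); Ccl2 and Ccl7 change sign with all reads and with mitochondrial scaling.

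Of all genes tested, 33.9% were called higher with α-amanitin and 10.3% lower. Of those 13710 genes, 3223 were called higher and 4163 lower with all reads, and 284 and 11686 with mitochondrial scaling. The main counts of higher ligands and prostaglandin genes below lie near the share of 33.9%. Of the other pathway genes, 6 of 18 chemokine ligands were higher with α-amanitin and 0 lower, such as Ccl8 at 15.3 ± 6.74 RPKM with α-amanitin and 4.02 ± 0.415 with DMSO (3.16-fold, adjusted p = 0.00766). The split was 4 higher and 6 lower with all reads and 0 and 15 with mitochondrial scaling. Without α-amanitin replicate 1 it was 12 and 1, and it was 3 and 0 when any of the other 3 α-amanitin libraries was left out. In the prostaglandin pathway 5 of 16 were higher and 0 lower, with the synthase Ptges2 at 15.0 ± 6.46 RPKM in α-amanitin cells and 4.15 ± 0.156 in DMSO cells (3.03-fold, adjusted p = 0.00809), and the split was 2 higher and 4 lower with all reads, while 11 were lower and 0 higher with mitochondrial scaling. That count of 5 was 11, with 1 lower, without α-amanitin replicate 1 and 2 or 3 when any of the other α-amanitin libraries or of DMSO replicates 2, 3 and 4 was left out. Among the partners of TSG-6, Ptx3 stood at 16.6 ± 2.68 RPKM with α-amanitin and 5.84 ± 1.10 with DMSO (2.70-fold, adjusted p = 0.00107), and Has1 at 93.4 ± 14.4 RPKM in α-amanitin cells and 47.7 ± 12.9 in DMSO cells (1.97-fold, adjusted p = 0.00975); with mitochondrial scaling both changed sign, to -0.11 and -0.63 on the log2 scale. Muscle fibre genes summed to 2624 to 13448 RPKM with α-amanitin and 63.1 to 109.8 with DMSO, macrophage genes to 166 ± 63.0 in α-amanitin cells and 69 ± 6.17 in DMSO cells, and fibro-adipogenic genes to 2955 ± 802 in α-amanitin cells and 1464 ± 311 in DMSO cells. Their part in the member values was not tested.

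DMSO cells and the isolated cells of the labelling experiment also differed. The protocol places the 2 groups in different experiments and adds 4tU during the isolation in the labelling experiment, while the label of the isolated cells names no 4tU labelling. Solvent, 4tU, experiment and any difference in genotype cannot be told apart. Il6 averaged 92.1 ± 5.56 RPKM in DMSO cells and 28.3 ± 1.78 in isolated cells, 3.22-fold higher (log2 change 1.69, SE 0.10, adjusted p = 6.21e-07, limma) and Ptgs2 18.1 ± 0.746 RPKM in DMSO cells and 6.23 ± 0.441 in isolated cells, 2.76-fold higher (log2 change 1.47, SE 0.09, adjusted p = 6.13e-07, limma). In DMSO cells Ccl7 was 2.05-fold higher (adjusted p = 7.33e-05), Tnfaip6 1.71-fold (adjusted p = 0.00410), Cxcl1 1.58-fold (adjusted p = 0.00328), Ccl2 1.48-fold (adjusted p = 0.00651) and Lif 1.37-fold (adjusted p = 0.00253). These 7 did not overlap between the groups, and the call of Lif was lost when libraries were scaled to all reads (log2 change 0.16, adjusted p = 0.203). Csf1 overlapped (log2 change 0.25, adjusted p = 0.127; -0.08 with all reads). The all-gene median was 0.12, or 0.02 with median-of-ratios factors and -0.19 with all reads, and relative to it Il6 stood at 1.56, 1.55 and 1.54 under the 3 scalings. Of 14165 genes tested, 24.7% were called higher, 18.9% lower and 43.6% either way. Csf3 was higher in DMSO cells as well, at 14 ± 1.35 RPKM in DMSO cells and 2.34 ± 0.221 in isolated cells (5.12-fold, adjusted p = 3.81e-08). Endothelial genes summed to 362 ± 29.6 RPKM in DMSO cells and 142 ± 5.97 in isolated cells, with 10 of 10 higher, and macrophage genes to 69 ± 6.17 in DMSO cells and 24.6 ± 1.06 in isolated cells, with 8 of 9 higher; their part was not tested. The order of library preparation of the 2 groups was not given in the sources used here.

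Across the 8 group means of the larger table, the members resembled each other. Pearson's r of log2(mean RPKM + 0.5) ran from 0.793 for Ccl7 and Ptgs2 to 0.989 for Cxcl1 and Tnfaip6. These points share the libraries and the contrast of isolated cells with muscle, so r describes that shared shape and carries no p. Among 13867 genes, those nearest to Cxcl1 were Scrn1 (r = 0.997), Arsg (0.996) and Fzd3 (0.996), and those nearest to Il6 were Sox8, Socs3 and Iqsec3 (0.992 each). Ccl2 was nearest to Dync2li1 (0.995), Ccl7 to Serping1 (0.99), Lif to Ikzf4 (0.998), Csf1 to Syt11 (0.993), Tnfaip6 to Gem (0.998) and Ptgs2 to Prdm1 (0.993).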

How the data were processed

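Poly(A) RNA of 39 mouse libraries was analysed from 2 tables of RPKM that the authors deposited. Per the labels' protocols, RNA was extracted with TriZol and RNeasy, or with a kit for fixed tissue in both fixation groups, and 500 pg (1 ng for fixation) was primed with oligo(dT) and read as 101 bp pairs. The tools listed per the submitters' processing notes are STAR, Trim Galore, edgeR and Subread's featureCounts, with the mm10 genome. Their versions, and whether counting used strand, were not given in the sources used here. Column names of the larger table sit 1 cell to the left of their values and were read with that shift. RPKM times gene length and a library factor gave whole reads within 0.1 of a read, from which depth and other scalings were computed. No value column was left unused.

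Tests ran in limma 3.58.1 (R 4.3.3) with the trend option on log2(RPKM + 0.5), over genes that reached 1 RPKM in no fewer than 3 libraries of the groups compared, with Benjamini-Hochberg adjustment over all of them. A count test had been planned, and RPKM needed this one instead. The code was tested on simulated data. The members and lists were chosen with earlier results of these data known. The rule for list genes took up to 4 called genes per list and comparison, by size of change, that averaged at least 2 RPKM where they were higher, of which the text gives some. Tables came from pandas 2.3.3 with numpy 2.4.6 under Python 3.11.15, and figures from matplotlib 3.10.9. Reads are amplified copies, so their number covers counting error only.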

Additional observations from a re-analysis of the deposited data

Results flagged for a closer look

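Of 72 groups of 4 libraries screened, gene by gene, 11 held 1 library whose distance from the other 3 was large against the range of the group, a rule that chance alone meets in about 1 of 20 groups. With α-amanitin, replicate 1 was low for Cxcl1 (603 RPKM, the others 923 to 938) and for Il6 (39.8, the others 58.6 to 62.2). With DMSO, replicate 1 was high for Ccl2 (85.4, the others 59.9 to 61.9) and for Ccl7 (94.5, the others 70.0 to 72.4). In the isolation label, replicate 4 was high for Il6 (75.4, the others 27.9 to 29.8). In fixed cells, replicate 4 was high for Il6 (4.88, the others 0.682 to 1.00) and for Csf1 (5.68, the others 2.78 to 3.25). Replicate 1 was high for Ccl2 in the 1 d label (4.26, the others 3.87 to 3.90) and in the 4 d label (5.24, the others 3.87 to 4.06). Ccl7 was low in replicate 4 of the 4 d label (10.1, the others 10.7 to 10.8), and Tnfaip6 was high in replicate 4 of whole muscle (4.28, the others 3.96 to 4.01). All values are RPKM.

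The difference from whole muscle changed between the 4 d and the 6 h label for 4 genes, by limma's direct test of the 2 labels. In that test 88.7% of 11975 genes were called, 36.1% higher and 52.7% lower, so such a change is not particular to these genes. For Cxcl1 the log2 difference from whole muscle was -0.19 at 4 d and 1.10 at 6 h, a change of -1.30 (adjusted p = 3.53e-07). For Tnfaip6 it was -0.42 at 4 d and 0.86 at 6 h, a change of -1.28 (adjusted p = 3.91e-08). For Ccl2 it was -1.43 at 4 d and -1.09 at 6 h, a change of -0.34 (adjusted p = 0.00895, but 0.107 with median-of-ratios factors and 0.110 with all groups in 1 fit), and for Ccl7 -1.03 at 4 d and -1.90 at 6 h, a change of 0.87 (adjusted p = 6.85e-07). Both label groups were set against the same whole muscle libraries.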

How the results depend on the processing

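Results were recomputed with other pseudocounts, filters and library scalings, limma-voom on the recovered reads, all groups of a table in 1 fit, a replicate block and without each library in turn. Members called with α-amanitin numbered 3, but 6 with library sizes from all reads and 7 with mitochondrial scaling, and 3 to 5 without single libraries. All genes called there numbered 6058 of 13710, and 11970 with mitochondrial scaling. With all reads, 3223 of all genes were called higher and 4163 lower. With a filter of 5 RPKM, fewer members could be tested against whole muscle, and those called numbered 3 (6 h), 2 (1 d) and 2 (4 d), and 3 for 4 d against 6 h. Without single libraries the members called numbered 6 to 8 for fixation (when any unfixed library was left out, Lif and Ptgs2 missed the filter and the other 6 were called), 7 to 8 for the 6 h against the isolation label, 4 to 5 for 1 d, 5 to 6 for 4 d and 5 to 6 for 4 d against 6 h.

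Signs turned as follows, and the cause was not tested. With all reads and α-amanitin, Ccl2 was -0.22 and Ccl7 -0.00161 on the log2 scale, and with mitochondrial scaling Ccl2 was -1.32, Ccl7 -1.10 and Csf1 -0.46. With all reads, Il6 was -0.32 and Cxcl1 -0.46 in the isolation label against total RNA, Cxcl1 was 0.10 at 1 d, Csf1 was -0.0553 at 4 d against 6 h and -0.0825 in DMSO against isolated cells. Without single libraries, Tnfaip6 with α-amanitin ran from -0.228 to 0.0199 (without DMSO replicate 1), and Cxcl1 at 1 d from -0.163 to 0.0126 (without replicate 4 of the label). Without single libraries, 542 member results kept their direction and their side of the threshold, 2 changed sign and 4 gained a call. Under other settings 602 kept both, 10 changed sign, 8 gained a call and 8 lost it. These totals pool all comparisons and do not speak for α-amanitin alone.

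In no comparison was the correlation of deviations above 0.1 in every same-numbered pair, so the numbers were not taken to pair the samples. It ran from -0.59 to -0.11 for α-amanitin against DMSO and from -0.04 to 0.04 for fixation, but was above 0 in 4 of 4 pairs for isolated cells (0.00809 to 0.22), the 6 h label (0.02 to 0.16), the 1 d label (0.02 to 0.14) and the 4 d label (0.04 to 0.24) against whole muscle. In these 4 comparisons 6, 6, 2 and 6 of 8 libraries correlated best with their own number, a hint from the data and not from the design. With the replicate block, Il6 with α-amanitin had an adjusted p of 0.0957 and Ptgs2 in fixation, with replicates 1 and 3 only, a log2 change of -1.90 and an adjusted p of 0.0518, and no other member call was lost. With all groups in 1 fit, Ccl7 with α-amanitin had an adjusted p of 0.0255, Csf1 at 1 d 0.0880 and Ccl2 at 4 d against 6 h 0.110. All genes called with α-amanitin numbered 1978 with the block and 6058 without it, and those called for fixation 1770 with it and 2951 without it. Calls over all genes ranged from 1978 to 11970 for α-amanitin and fell to 1527 of 2951 for fixation without unfixed replicate 3. With the filter of 5 RPKM, under which fewer genes are tested, they fell to 7493 of 14111 for isolated cells against whole muscle, 5359 of 8843 for the isolation label against total RNA, 5306 of 8188 for the 6 h against the isolation label, 6917 of 10577 for 6 h and 6017 of 9586 for 4 d against whole muscle and 6701 of 10623 for 4 d against 6 h. With all groups in 1 fit they fell to 5527 of 9250 for 1 d against whole muscle and for DMSO against isolated cells to 2338 of 6170. Over all genes, scaling to all reads gave 3223 higher and 4163 lower with α-amanitin in place of 4646 and 1412, and mitochondrial scaling 284 and 11686. It gave 3005 and 7237 in place of 4426 and 4417 for the isolation label against total RNA, 2577 and 4628 in place of 5010 and 3178 for the 6 h against the isolation label, and 10847 and 3384 in place of 7227 and 6884 for isolated cells against whole muscle. Against whole muscle it gave 6972 and 3574 in place of 5357 and 5220 at 6 h, 4674 and 4376 in place of 3149 and 6101 at 1 d, and 4475 and 5017 in place of 3189 and 6397 at 4 d. For DMSO against isolated cells it gave 1227 and 6067 in place of 3495 and 2675. The isolation label, with 8 to 100 reads of Ptgs2 and 33 to 77 of Lif per library, limits what these 2 genes can show there.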
